A study of Mus musculus with 8 samples.

Results

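Myh3 and Myh8, the genes of the embryonic and the perinatal skeletal myosin heavy chain, were followed in spatial transcriptomes of the fetal mouse diaphragm. They were chosen by symbol and are 2 of the 19465 genes in the tables. The study placed 8 formalin-fixed, paraffin-embedded diaphragm sections on barcoded slides, on which each spot collects the RNA of a small disc of tissue holding several cells. At E14.5 (E, embryonic day) there were 3 control sections and 1 CaV1.1 KO section, and at E18.5 there were 2 control sections, 1 CaV1.1 KO section and 1 β-catenin cKO section. Controls kept at least 1 expressed allele of both CaV1.1 (Cacna1s) and β-catenin (Ctnnb1). The CaV1.1 KO lacks both copies of the voltage sensor of excitation-contraction coupling in every tissue, whereas the β-catenin cKO carries 2 floxed β-catenin alleles and a Cre driven by the skeletal muscle actin (HSA) promoter, so that the gene is removed in muscle fibers. Each mutant group was 1 section, so a mutant section was taken to vary as the control sections do, and p-values measure only the spread between sections.

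Myosin heavy chains are the motor proteins of the thick filament, and a fiber's mixture of them sets how fast it contracts. Developing limb and trunk muscle first builds its sarcomeres with the embryonic and perinatal chains, which the adult fast chains encoded by Myh2, Myh1 and Myh4 later replace, while Myh7 encodes the slow chain that is shared with the heart. The fast and developmental genes stand side by side in 1 cluster, and their order along the chromosome has been kept across mammals.

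In RefSeq annotation of GRCm38.p6, Myh3 occupies chr11:67078273-67102291 and Myh8 chr11:67277124-67308634, both on the plus strand. The 174832 bases between them hold 3 genes, Myh2, Myh1 and Myh4. The upstream sequences of both genes are shown because the genes are neighbors of a single family whose levels parted between the stages. They are given 5′ to 3′ on the plus strand, for Myh3 at chr11:67078050-67078272 (223 bases) and for Myh8 at chr11:67276874-67277123 (250 bases). Capitals mark the CANNTG match of each gene and, in Myh8, the 15-base and the 14-base run that it shares with its neighbors.
Myh3: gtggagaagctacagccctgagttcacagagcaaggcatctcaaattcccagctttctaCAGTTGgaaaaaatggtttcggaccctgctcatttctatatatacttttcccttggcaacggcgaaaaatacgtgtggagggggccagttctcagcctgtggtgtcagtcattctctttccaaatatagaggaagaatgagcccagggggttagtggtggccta
Myh8: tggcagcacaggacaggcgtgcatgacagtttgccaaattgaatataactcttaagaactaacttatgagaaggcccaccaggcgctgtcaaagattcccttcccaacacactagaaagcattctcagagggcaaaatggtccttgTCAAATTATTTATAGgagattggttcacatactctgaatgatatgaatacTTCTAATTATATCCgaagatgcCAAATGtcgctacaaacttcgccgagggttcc

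The run TTCTAATTATATCC occurred upstream of Myh8, Myh1, Myh2 and Myh4 and of no other gene among 32851 promoter windows (0.0122%). The run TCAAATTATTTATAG occurred only upstream of Myh8, Myh1 and Myh4. Neither run was in the Myh3 window, whose longest run in common with Myh8 was AAAATGGT, 8 bases that 0.828% of windows hold. Of the motifs searched on both strands, CANNTG (an E-box, the letters that myogenic helix-loop-helix factors read) matched at −191 to −186 in Myh3 and at −32 to −27 in Myh8, and 66.2% of all windows held it. The MEF2 motif, found in 2.92% of windows, matched in Myh8 at −99 to −90, inside the 15-base run, and not in Myh3. TATAAA, found in 12.4% of windows, matched in Myh3 at −29 to −24 and in Myh8, on the minus strand, at −96 to −91, where it overlaps the MEF2 match. The table places the start site of Myh3 inside the annotated gene, so the printed run stops where the gene begins and the TATAAA match runs past it. Neither CATTCC nor the CArG box matched in either window. These matches describe letters and were not tested as binding sites.

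Unique molecular identifiers (UMIs), which count captured probe molecules, were summed over the spots of each section, so that the section and not the spot was the replicate. Of 12771 spots over tissue, 12703 held at least 1000 UMIs, and 9873 were called muscle from 9 sarcomere genes that include neither member. Muscle made up 55.0% to 89.4% of the spots kept, with 12835167 to 75800909 UMIs a section. Myh3 and Myh8 were deeply counted, since the median muscle spot held 27 to 266 UMIs of Myh3 and 68 to 956 of Myh8, and intervals cover counting error only. The targeted genes gave a limited check of the labels. Levels are UMIs of a gene per 1000000 UMIs of the same spots (CPM), without TMM scaling unless named. Cacna1s stood at 18.3 to 22.8 CPM in E14.5 control muscle and 16.2 in the CaV1.1 KO, and at 61.2 and 63.9 in E18.5 controls and 31.4 in the CaV1.1 KO. With TMM scaling its log2 change in the E18.5 CaV1.1 KO was −1.53. Most adult muscle isoforms fell there too (given below), so this fall does not single out the targeted gene. Ctnnb1 was not lower in the β-catenin cKO (81.5) than in its controls (75.9 and 71.2). A probe outside the altered part of a gene checks nothing, and where these probes lie is not given in the sources used here.

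Between E14.5 and E18.5, Myh8 rose severalfold in control muscle, while Myh3 did not pass the test. The Myh8 level in control muscle was 5156, 3884 and 4239 CPM at E14.5 and 34348 and 33408 at E18.5. Every E18.5 section lay far above every E14.5 section, with means of 4427 ± 657 (SD, n = 3) and 33878 ± 664 (SD, n = 2). The edgeR quasi-likelihood test gave a log2 fold change of 3.65 ± 0.18 (SE, Benjamini-Hochberg adjusted p = 2.6e-06), in a comparison that called 65.5% of 14810 genes. The Myh3 level was 6664, 5519 and 5359 CPM at E14.5 and 4361 and 3781 at E18.5. As a share of all UMIs Myh3 was thus lower in both E18.5 sections than in any E14.5 section, with means of 5847 ± 712 (SD, n = 3) and 4071 ± 410 (SD, n = 2). Its log2 fold change in the same test was 0.19 ± 0.16 (SE, adjusted p = 0.32), with TMM scaling, which allows for the part of a library that a few abundant genes take up.

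The direction for Myh3 depended on that scaling. With library size alone it fell by 0.52 (log2, adjusted p = 0.0052), and scaled to the 9 muscle genes it fell by 2.96. These scalings moved the median of all genes by −0.73 and −3.19, so that Myh3 lay 0.21 and 0.23 above that median, against 0.21 with TMM. Myh8 was higher under all 3 scalings, by 2.94 with library size alone and by 0.50 relative to the 9 muscle genes, several of which are adult isoforms that rise with age themselves. In whole-section sums of muscle spots, fewer cells of a type and less RNA per cell cannot be told apart.

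**Figure D1:**
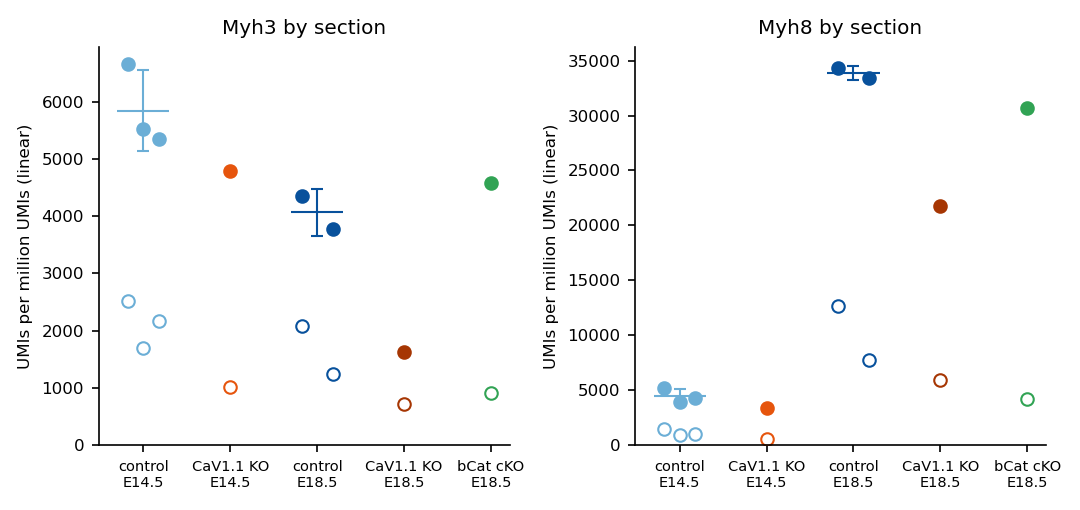
Myh3 (left) and Myh8 (right) in CPM, on linear axes from 0, in every section by group. Filled points are muscle spots, open points the other spots of the same section, and bars the mean ± SD of control muscle. Myh8 in control muscle stands at 3884 to 5156 at E14.5 and at 33408 and 34348 at E18.5, while the CaV1.1 KO at E18.5 has the lowest Myh3 of all muscle (1627).

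The ratio of the genes needs no scaling between sections. The probes of different genes are not equally efficient and their counts were not divided by length, so only changes of the ratio and of shares between sections are read here. The log2 ratio of Myh3 to Myh8 UMIs in muscle was 0.37, 0.51 and 0.34 at E14.5 and −2.98 and −3.14 at E18.5. The groups did not overlap and differed by −3.47, with p = 0.2 in an exact two-sided permutation test over the 5 control sections, which is the smallest p that 3 against 2 sections can give. Spot by spot, raw UMIs of Myh3 exceeded those of Myh8 in 72.7%, 74.6% and 80.2% of E14.5 control muscle spots. At E18.5 it did so in 0 of 3092 and 0 of 2199, for which the Wilson 95% interval reaches at most 0.17% if spots are taken as independent, which neighboring spots of a section are not. The counts of paralogs as alike as these could be mixed if a probe bound more than 1 of them, which was not tested.

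In raw UMIs, with no allowance for probe efficiency, Myh3 and Myh8 together made up most of the sarcomeric myosin heavy chain counts at both stages, 85.9% to 87.4% in E14.5 control muscle and 87.8% to 91.3% at E18.5. Myh3 alone went from 48.0% to 50.4% down to 8.9% to 10.3%, and Myh8 from 35.5% to 38.1% up to 78.8% to 81.0%. Of the 6 other sarcomeric chains tested, 4 rose and 2 fell. Myh2 (IIa), Myh1 (IIx) and Myh4 (IIb), the adult fast chains, rose by 6.50 ± 0.27, 4.23 ± 0.21 and 3.35 ± 0.19 on the log2 scale (SE), the first from at most 23 UMIs a section. The slow chain Myh7 rose by 1.82 ± 0.15, though relative to the 9 muscle genes it fell by 1.35 and Myh4 (0.18, adjusted p = 0.33) did not pass the test. Myh6, the α-cardiac chain, and Myh7b, an ancient slow chain, fell by 3.09 ± 0.24 and 1.19 ± 0.14, under all 3 scalings. The gene of the extraocular chain, Myh13, was not analysed here.

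Other genes of muscle maturation were read from fixed lists. All 13 adult isoforms of sarcomere and metabolic genes, 4 of which also served to call muscle spots, were higher at E18.5, with a median log2 change of 3.96 against −0.01 for all genes tested, led by the fast myosin-binding protein Mybpc2 (8.98 ± 0.15) and parvalbumin (Pvalb, 7.27 ± 0.42). Of 6 embryonic isoforms, 2 were higher and 2 lower, a share called near the 65.5% of all genes. The fetal acetylcholine receptor subunit Chrng fell by 1.69 ± 0.16 and cardiac troponin T (Tnnt2), the early form in skeletal muscle, by 0.999 ± 0.15. Ncam1 rose by 0.96 ± 0.10 and slow troponin T (Tnnt1) by 0.61 ± 0.17. Of 10 genes of myosin folding and the thick filament, 7 were higher, among them slow myosin-binding protein Mybpc1 (4.20 ± 0.18) and the M-band protein myomesin (Myom1, 2.70 ± 0.12), and 2 lower. Relative to the 9 muscle genes, 9 of the 13 adult isoforms were still higher, whereas all 6 embryonic isoforms and 9 of the 10 thick filament genes were lower. The 4 adult isoforms that served to call muscle spots are part of that scale. Counts of adult isoforms relative to it, here and below, are thus partly fixed in advance. Among other tissues, the summed tendon markers (5 genes) stood at 202 to 273 CPM in E14.5 and 340 to 466 in E18.5 control muscle, and fibroblast markers (5 genes) at 10882 to 13340 and 8306 to 10466. All 5 tendon, 5 endothelial and 4 tested cartilage markers and 3 of 4 mesothelial markers were called higher at E18.5, and of 5 fibroblast markers 2 were higher and 2 lower. Cartilage markers summed to 13.3 to 21.3 CPM at E14.5 and to 78.7 and 938 in the E18.5 controls. The part of other tissue in these changes was not tested.

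Outside the muscle spots both genes were lower in all 8 sections. Non-muscle spots held Myh3 at 1249 to 2511 CPM in the 5 control sections and 880 to 1494 (E14.5) and 7753 to 12618 (E18.5) of Myh8. Spots called non-muscle can overlap fibers, and RNA can spread between neighboring spots, so these levels are no evidence of expression in other cells.

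The study asked where along the fibers muscle genes are expressed, and the next comparisons place both chains on that map. The center, where the neuromuscular junctions lie, was taken as the top 15% of muscle spots on a score of 8 junction genes. The periphery, where fibers meet tendon and rib, was the top 15% on a score of 4 myotendinous genes, and the rest was called intermediate. Neither member was in a score.

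**Figure D2:**
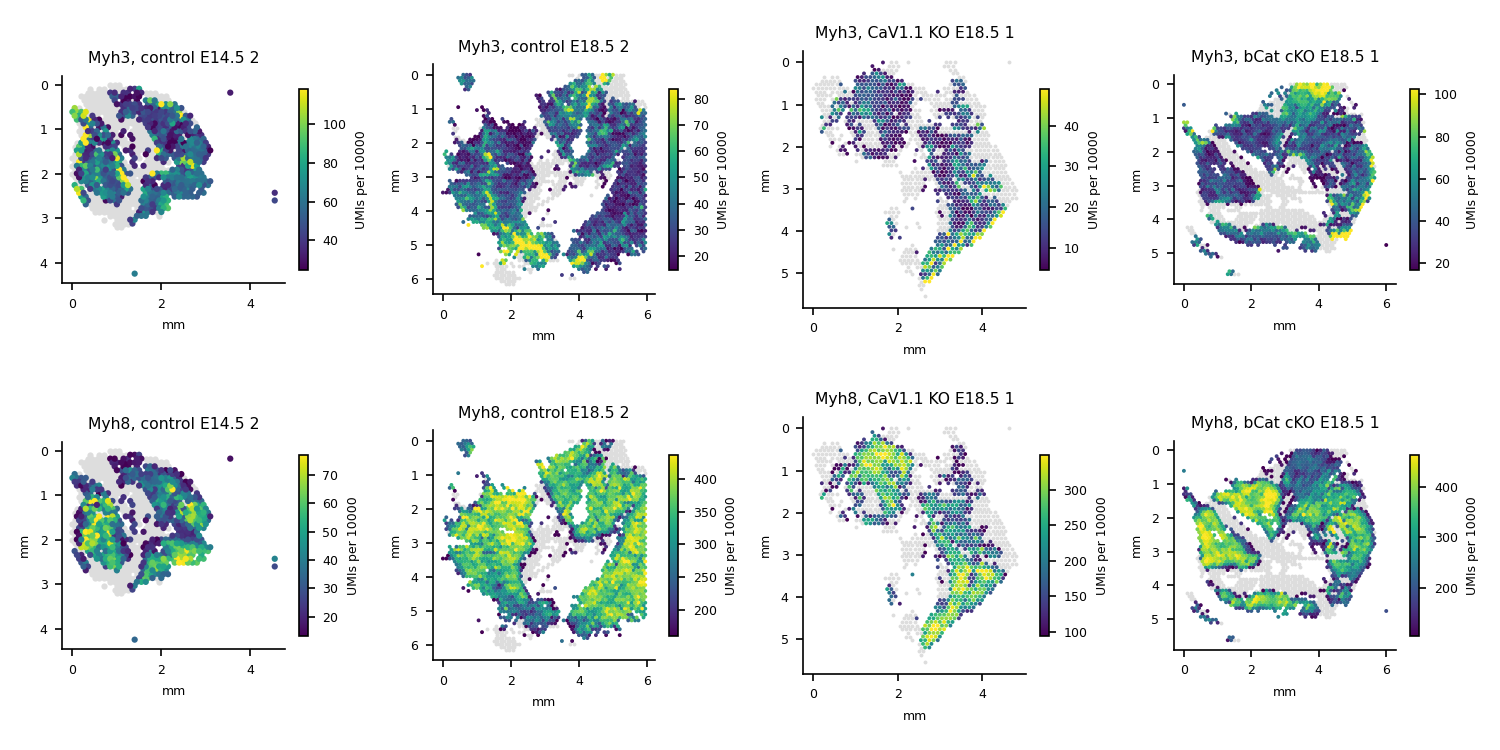
Myh3 (top) and Myh8 (bottom) in muscle spots of 4 sections, colored by UMIs per 10000 UMIs of the spot with a separate color scale for each panel; axes are position in mm, and gray spots are non-muscle. At E18.5 the brightest Myh3 spots form bands and patches that are dim for Myh8 in the control section, with r of −0.48 and −0.21 between the genes over the muscle spots of the 2 control sections.

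At E14.5 the center exceeded the periphery for Myh8, and the periphery exceeded the center for Myh3. The center of the 3 control sections held Myh8 at 5935, 4829 and 4877 CPM, against 3888, 3015 and 3693 in the periphery. For Myh3 these were 6709, 6083 and 5442 CPM against 8685, 8035 and 6208 CPM. Every section showed both directions, and Myh3 was lowest in the intermediate region in all 3. In the fit with section as a block, center against periphery was 0.64 ± 0.06 for Myh8 (log2, SE, edgeR adjusted p = 4.6e-10) and −0.25 ± 0.06 for Myh3 (adjusted p = 0.0015), where 20.3% of 14148 genes were called. The log2 ratio of Myh3 to Myh8 was 0.18, 0.33 and 0.16 in the center but 1.16, 1.41 and 0.75 at the periphery. Of the other chains, Myh1 (1.45 ± 0.09), Myh6 (1.63 ± 0.12), Myh4 (0.95 ± 0.17) and Myh7b (0.90 ± 0.07) were higher in the center with Myh8, and Myh7 (−0.43 ± 0.06) was lower there with Myh3. Tendon and fibroblast markers, 5 of 5 genes of each list, were lower in the center than in the periphery, and their part was not tested.

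At E18.5 Myh3 was again higher in the center and the periphery than in the intermediate region, and Myh8 was lower in both. Myh3 was 6270 and 5567 CPM in the center of the 2 control sections, 3736 and 3265 in the intermediate region, and 5272 and 4334 in the periphery. The center and periphery of both sections lay above both intermediate values, by 0.62 ± 0.07 (log2, SE, edgeR adjusted p = 7.5e-08) for the center, where 11.9% of genes were called, and by 0.24 ± 0.07 (adjusted p = 0.0077) for the periphery, where 30.8% were called. Without control section 1 the second of these was 0.19 and not called (adjusted p = 0.22). Myh8 was 30802 and 31128 in the center, 36119 and 34876 in the intermediate region, and 29928 and 28720 in the periphery. Both regions of both sections lay below both intermediate values, by −0.33 ± 0.07 (adjusted p = 0.00084) in the center and −0.49 ± 0.07 (adjusted p = 1.2e-06) in the periphery. Relative to the 9 muscle genes these differences of Myh8 were −0.05 (adjusted p = 0.51) and −0.04 (adjusted p = 0.56), while those of Myh3 were 0.90 and 0.69. Without control section 1 the center value of Myh8 was −0.28 (adjusted p = 0.19).

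Adult isoforms were counted in the same regions of E18.5 controls, where 11.9% (center) and 30.8% (periphery) of all genes were called. Of 13, 12 were lower in the center than in the intermediate region, 1 was higher (Chrne, the adult acetylcholine receptor subunit, 3.62 ± 0.18), and 12 were lower in the periphery. Scaled to the 9 muscle genes, 1 and 4 were lower. Cardiac troponin T (Tnnt2) was higher in the center (0.53 ± 0.06). It is among the genes most like Myh3 across the same control spots (mean r 0.50), so its direction is not independent of that of Myh3. The other embryonic isoforms are not given for these regions, so nothing is read here about that list. Myh4, the fastest chain, was lower in both regions (−0.49 ± 0.07 and −1.30 ± 0.07), and Myh1 was lower in the center (−0.28 ± 0.06) but higher at the periphery (0.46 ± 0.06). Relative to the 9 muscle genes neither chain passed in the center (−0.21 and 0.0014), and both kept their calls at the periphery (−0.86 and 0.90). Beside these, all 4 Schwann cell markers were higher in the center and summed to 38 to 53 CPM against 17 to 19 in the intermediate region. In the periphery, all 5 tendon markers were higher, with 883 to 1393 CPM against 244 to 325. Their part in the results was not tested.

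**Figure D3:**
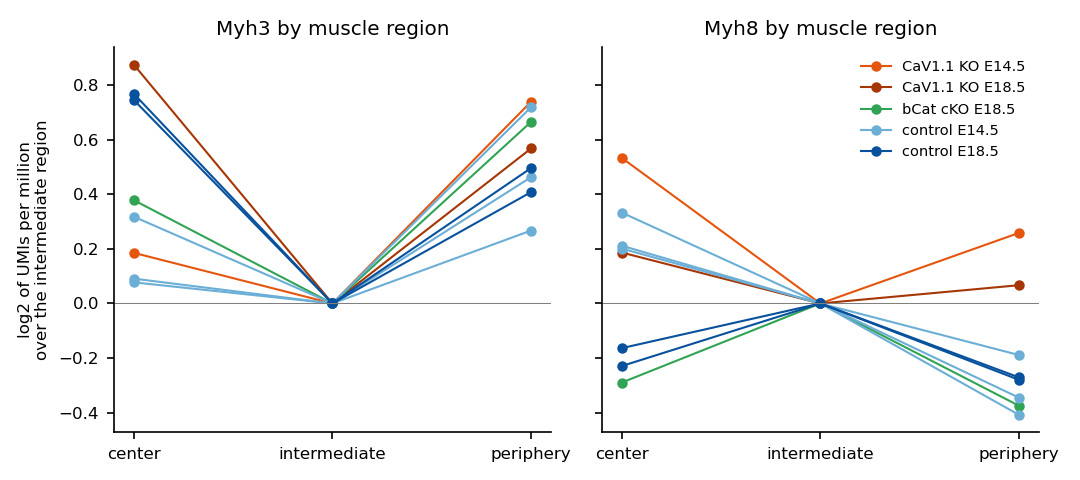
Log2 of CPM in the center and the periphery over the intermediate region of the same section, for Myh3 (left) and Myh8 (right), with 1 line for each of the 8 sections colored by group. Myh3 lies above 0 in both regions in 8 of 8 sections, whereas Myh8 lies above 0 in the center of the E14.5 controls and below 0 in the center of the E18.5 controls.

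The change of the center between stages passed the test for both genes, in opposite directions. The ratio of center to intermediate CPM for Myh3 was 1.07, 1.25 and 1.06 at E14.5 and 1.68 and 1.70 at E18.5. For Myh8 it was 1.15, 1.26 and 1.16 at E14.5 and 0.85 and 0.89 at E18.5. The stages did not overlap for either gene. The difference between the stages was 0.43 ± 0.09 for Myh3 (log2, SE, edgeR adjusted p = 0.0012) and −0.62 ± 0.09 for Myh8 (adjusted p = 1.0e-05), and 12.7% of genes were called. For Myh8 it was −0.08 (adjusted p = 0.40) relative to the 9 muscle genes. The matching difference for the periphery did not pass, at −0.20 ± 0.09 for Myh3 (adjusted p = 0.18) and −0.13 ± 0.09 for Myh8 (adjusted p = 0.44), where 10.5% were called. Both had the opposite sign relative to the 9 muscle genes (0.34 and 0.41).

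Position was also read without any gene of either region, as how far a muscle spot lies from the closest position outside muscle. The border of muscle was itself drawn from the 9 muscle genes. Spots beside it can therefore be low in those genes, which Myh8 follows across spots (given below). Positions beyond the capture area are unseen, and tissue reached its outermost grid positions with 109 and 70 spots in the E18.5 controls, 10 in the CaV1.1 KO and 17 in the β-catenin cKO of E18.5, so distances there can be too long. Myh8 was higher at over 200 to 300 µm than at the border of the muscle in all 8 sections. At up to 100 µm from the border, Myh8 was 4142, 3004 and 3311 CPM in E14.5 controls, and at over 200 to 300 µm it was 6513, 4733 and 4596. Farther in it was lower again in control section 1 of E14.5 (5899) and in the β-catenin cKO, which had 36120 at over 200 to 300 µm and 27348 beyond 500 µm. In E18.5 controls it was 29463 and 27550 near the border and 36499 and 35916 beyond 500 µm. The inner spots, over 150 µm from the border, exceeded the rim by 0.59 ± 0.04 (log2, SE, edgeR adjusted p = 4.8e-10) at E14.5, where 22.4% of genes were called, and by 0.55 ± 0.04 (adjusted p = 4.4e-09) at E18.5, where 36.6% were called. Relative to the 9 muscle genes, whose own mean level also rises inward, these differences were 0.23 (adjusted p = 1.6e-05) and 0.05 (adjusted p = 0.37). For Myh3 the same comparison gave 0.10 ± 0.05 (adjusted p = 0.15) and 0.10 ± 0.06 (adjusted p = 0.21), and relative to the 9 muscle genes it fell by 0.26 and 0.41. Without control section 1 of E18.5 the second value was 0.25 and called (adjusted p = 0.00011), and without section 2 it was −0.060 (adjusted p = 0.45). The first was called when either E18.5 section was left out (0.10 each, adjusted p = 0.0088 and 0.0091). In E18.5 control section 1 the level of Myh3 went from 5101 at the border to 3778 beyond 500 µm, and in section 2 from 3764 to 3578.

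**Figure D4:**
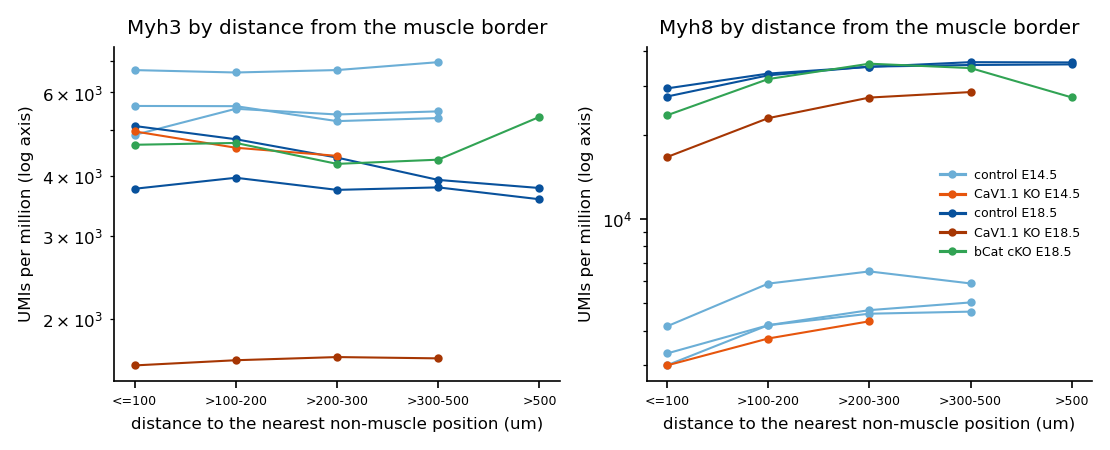
CPM (log axes) of Myh3 (left) and Myh8 (right) against the distance of muscle spots to the nearest non-muscle position in µm, 1 line for each of the 8 sections colored by group. Myh8 climbs away from the border in the controls (from 27550 to 35916 in E18.5 control section 2), while Myh3 goes from 5101 to 3778 in E18.5 control section 1 and from 3764 to 3578 in section 2.

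Across muscle spots the genes most like Myh3 differed between the stages, and those most like Myh8 were mostly shared. Among 5989 genes with enough counts, those most like Myh3 at E14.5, by the mean within-section Pearson r over 3 control sections, were Myh7 (0.58), Myom2 (0.44), slow troponin C (Tnnc1, 0.44), the embryonic light chain Myl4 (0.42) and Myom1 (0.42). At E18.5, over 2 sections, they were the muscle LIM protein Csrp3 (0.60), slow troponin I (Tnni1, 0.60), Tnnt2 (0.50) and the small heat shock proteins Hspb7 (0.48) and Hspb1 (0.46). The slow or early forms of the thin filament are thus among the nearest genes at both stages. Those most like Myh8 at E14.5 were β-tropomyosin (Tpm2, 0.72), muscle creatine kinase (Ckm, 0.69), fast troponin C (Tnnc2, 0.68), the fast calcium pump Atp2a1 (0.66) and muscle enolase (Eno3, 0.64). At E18.5 they were Ckm (0.86), Atp2a1 (0.85), Tnnc2 (0.85), Eno3 (0.79) and muscle phosphoglycerate mutase (Pgam2, 0.78), fast fiber and glycolytic genes. Ckm, Atp2a1, Tnnc2 and Eno3 were in the list at both stages. The sarcomere genes that served to call muscle were left out of this ranking. Myh8 followed their score across the same spots, with r of 0.64 to 0.77 in E14.5 controls and 0.81 and 0.91 in E18.5 controls. Its r with Col1a1 was −0.71 to −0.58 at E14.5 and −0.67 and −0.79 at E18.5. For Myh3 the r with the score was 0.43 to 0.61 at E14.5 and −0.19 and 0.02 at E18.5. The part of a spot's muscle content in these lists was not tested.

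Myh3 and Myh8 themselves were weakly alike in E14.5 controls, with a mean r of 0.23, and opposed in E18.5 controls, with a mean r of −0.34. In E18.5 controls Myh8 ranked 5983 of 5989 by its likeness to Myh3. The mutant sections did not show this opposition to the same degree. Their r was 0.15 in the CaV1.1 KO and −0.06 in the β-catenin cKO of E18.5, and 0.47 in the CaV1.1 KO of E14.5. Over the 2 E18.5 control sections the r of Myh3 with Myh4 was −0.45 and −0.41. Spots of a section share a library and their values are shares of 1 total, so these correlations are descriptions. The spread between muscle spots moved apart too. The coefficient of variation of Myh3 per 10000 UMIs was 0.24 to 0.42 in E14.5 control sections and 0.47 to 0.50 at E18.5, and that of Myh8 was 0.28 to 0.43 and 0.20 to 0.21.

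Without CaV1.1, neither chain passed the test at E14.5. Myh3 was 4796 CPM in the CaV1.1 KO muscle, below the 5359 to 6664 of the 3 controls, and Myh8 was 3352, below 3884 to 5156. The single section thus lay below the control range for both genes, which share its library, and how many other genes did so was not counted. The log2 changes were −0.30 ± 0.21 (SE, edgeR adjusted p = 0.54) and −0.42 ± 0.23 (adjusted p = 0.42), where 2.07% of genes were called, and relative to the 9 muscle genes they were 0.28 and 0.16, also not past the test. Of the 6 other chains 0 were called, and relative to the 9 muscle genes Myh1 was higher by 1.11. Of 13 adult isoforms 6 fell, led by Ckm (−3.54 ± 0.31) and mitochondrial creatine kinase (Ckmt2, −2.84 ± 0.35), while 0 of 6 embryonic isoforms passed (4 were higher relative to the 9 muscle genes). The log2 ratio of Myh3 to Myh8 was 0.52, against 0.34 to 0.51 in controls.

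At E18.5 both chains were lower without CaV1.1, and Myh3 more so. Myh3 was 1627 CPM in CaV1.1 KO muscle, with a 95% counting interval of 1608 to 1647, against 4361 and 3781 in controls. Myh8 was 21792 against 34348 and 33408. The CaV1.1 KO lay below both controls for both genes, by −1.86 ± 0.24 (log2, SE, edgeR adjusted p = 0.0029) for Myh3 and −1.18 ± 0.25 (adjusted p = 0.014) for Myh8, in a comparison that called 25.7% of genes. Other muscle genes fell as well, and relative to the 9 muscle genes Myh3 was lower by −0.46 (adjusted p = 0.0033) and Myh8 was not (0.23, adjusted p = 0.094). That scaling raised the median of all genes by 1.40, and library size alone raised it by 0.54 and gave −1.32 for Myh3 and −0.64 for Myh8, both past the test. The log2 ratio of Myh3 to Myh8 was −3.74, below the −2.98 and −3.14 of the controls.

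**Figure D5:**
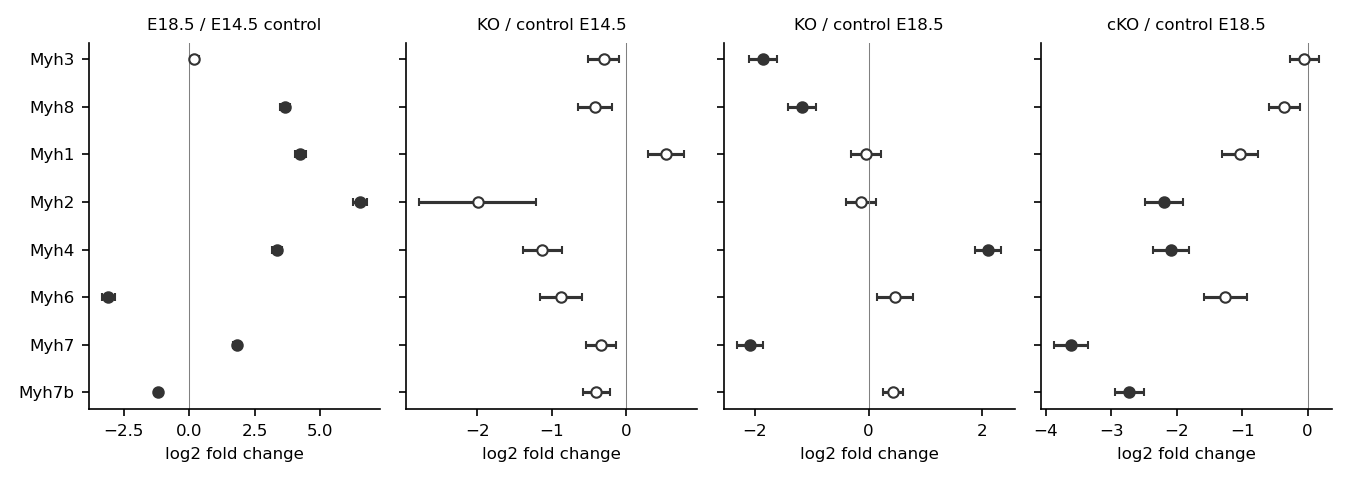
Log2 fold changes in muscle spots of Myh3, Myh8 and the 6 other sarcomeric myosin heavy chain genes (TMM-scaled edgeR fit) in 4 comparisons, with bars of 1 SE and filled points for an adjusted p under 0.05. Myh3 and Myh8 fall in the CaV1.1 KO at E18.5 (−1.86 and −1.18), where Myh4 rises (2.10) and Myh7 falls (−2.09), and neither is called in the β-catenin cKO. Scaled to the 9 muscle genes, Myh3 at E18.5 against E14.5 is lower and Myh8 in the CaV1.1 KO at E18.5 is not, and with library size alone both are lower.

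The rest of the family did not move as one in the CaV1.1 KO at E18.5. Myh4 rose by 2.10 ± 0.24 (SE, adjusted p = 0.0019), from 173 and 251 CPM in controls to 1322, under all 3 scalings. Myh7 fell by 2.09 ± 0.23, from 2221 and 2995 to 891, also under all 3. Myh1 (−0.05 ± 0.26) and Myh2 (−0.13 ± 0.26) did not pass with TMM scaling. Their values relative to the 9 muscle genes, a scaling that raised the median of all genes by 1.40, are not given here. The study, with its own normalization, reported Myh1, Myh2 and Myh4 as strongly higher in this mutant. Myh3 made up 5.83% and Myh8 78.1% of the sarcomeric chain UMIs, against 8.9% to 10.3% and 78.8% to 81.0% in controls. The counts from gene lists that follow stand beside 25.7% of all genes called in this comparison. Of 6 genes of early myofibril assembly 5 fell, led by Csrp3 (−4.33 ± 0.34) and Nrap (−2.12 ± 0.27). Csrp3 was the gene most like Myh3 across control spots of this stage. The next most alike, Tnni1 and Tnnt2, were not called in the KO (−0.41 ± 0.22 and 0.63 ± 0.20). Of 13 adult isoforms 11 fell and 1 rose, with a median of −1.30 against 0.00 for all genes. Relative to the 9 muscle genes only 2 of each list fell, and 2 adult isoforms and 1 assembly gene rose. Of 6 embryonic isoforms, Myl4 fell (−1.02 ± 0.22) and Chrng rose (0.96 ± 0.19), and relative to the 9 muscle genes all 6 rose. The muscle spots of this section also held more Schwann cell marker UMIs, 128 CPM over 4 genes against 21 to 24, with 4 of 4 genes called higher. Of the other lists, 4 of 5 endothelial, 3 of 5 tendon, 3 of 4 smooth muscle and 2 of 4 cartilage markers were called lower, and 1 of 5 fibroblast markers was higher and 1 lower. The mesothelial marker Wt1 was higher (1.18 ± 0.20), and Krt19, Msln and Upk3b of the same list were not called. The part of these cells in the results was not tested.

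The CaV1.1 effect differed between stages for Myh3 by −1.56 ± 0.30 (log2, SE, edgeR adjusted p = 0.033), where 6.37% of genes were called. The call was lost without control section 2 or 3 of E14.5 or control section 1 of E18.5, with −1.51, −1.48 and −1.45 (adjusted p = 0.070, 0.095 and 0.059). For Myh8 the difference was −0.76 ± 0.32 and did not pass (adjusted p = 0.19). Myh4 (3.23 ± 0.36) and Myh7 (−1.75 ± 0.29) passed in opposite directions. The comparisons of the mutants at E18.5 share the same 2 control sections.

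Within the CaV1.1 KO section of E18.5, Myh3 kept the order of the controls across the regions, and Myh8 did not. The study found Chrna1 and Musk broadly expressed in this muscle. The center by junction genes therefore need not be the same place as in the controls. Myh3 was 2521 CPM in the center, 1373 in the intermediate region and 2037 in the periphery. Myh8 was 24163, 21227 and 22235, highest in the center, where the controls were below their intermediate region. The center against intermediate difference, KO minus control, was 0.58 ± 0.12 for Myh8 (log2, SE, edgeR adjusted p = 0.0062) and 0.31 ± 0.13 for Myh3 (adjusted p = 0.21), where 3.21% of genes were called. For Myh8 it was 0.09 (adjusted p = 0.54) relative to the 9 muscle genes and 0.52 (adjusted p = 0.097) without control section 1 of E18.5. Of 13 adult isoforms, 11 were higher in this comparison with Myh8, and 0 of them relative to the 9 muscle genes.

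In the β-catenin cKO neither member passed the test, although other chains fell. Myh3 was 4580 CPM in cKO muscle, above the 4361 and 3781 of controls, and Myh8 was 30706, below 34348 and 33408. The log2 changes were −0.05 ± 0.22 (SE, edgeR adjusted p = 0.92) and −0.36 ± 0.24 (adjusted p = 0.39), where 8.79% of genes were called. Relative to the 9 muscle genes, a scaling that raised the median of all genes by 0.52, Myh3 was higher by 0.48 (adjusted p = 0.0099). Of the 6 other chains 4 fell, under all 3 scalings. Myh7 fell by 3.62 ± 0.26, from 2221 and 2995 CPM to 246, Myh7b by 2.72 ± 0.22, Myh2 by 2.19 ± 0.29 and Myh4 by 2.09 ± 0.27. Myh3 thus made up 12.6% and Myh8 84.2% of the sarcomeric chain UMIs, and the log2 ratio between them was −2.75, above both controls. Of 13 adult isoforms 3 fell, and of 6 embryonic isoforms Chrng rose (1.08 ± 0.19), while 5 were higher relative to the 9 muscle genes.

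In the cKO section, as in the controls, both the center and the periphery lay above the intermediate region for Myh3 and below it for Myh8. Myh3 was 5257 CPM in the center, 4042 in the intermediate region and 6414 in the periphery, and Myh8 was 26739, 32698 and 25208. The ratio of center to intermediate Myh3 was 1.30, below the 1.68 and 1.70 of the controls, and the ratio of center to periphery was 0.82 against 1.19 and 1.28, a change of order that was not tested. The difference from the controls did not pass, at −0.35 ± 0.12 for Myh3 (log2, SE, edgeR adjusted p = 0.37) and −0.06 ± 0.12 for Myh8 (adjusted p = 0.95), where 0.353% of genes were called.

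Both genes were among the most spatially ordered in every section by the deposited Moran's I, a score of how alike neighboring spots are over the whole section. Myh8 ranked 2 to 11 of the scored genes in the 5 control sections and in the E18.5 mutants, and 79 in the CaV1.1 KO of E14.5. Myh3 ranked 24 to 64 in controls, 21 in the β-catenin cKO, and 113 and 132 in the CaV1.1 KO at E14.5 and E18.5. Within muscle spots alone, Moran's I of Myh3 was 0.21 to 0.43 in E14.5 controls and 0.66 and 0.64 in E18.5 controls. That of Myh8 was 0.47 to 0.60 and 0.59 and 0.49. These sections held 549 to 581 muscle spots at E14.5 and 3092 and 2199 at E18.5, and whether other genes moved likewise was not tested. The deposited ranks include the contrast of muscle with other tissue.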

How the data were processed

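Diaphragm sections of mouse embryos were profiled by the authors with the 10x Visium probe-based assay for fixed tissue, aligned to mm10 with a mouse transcriptome probe set by Space Ranger (2.0.1, and 2.0.0 for 3 of the 8 sections per the file headers), and Seurat is named in the submitters' notes. The deposited matrices hold UMI counts per gene and spot over tissue, 1 matrix for each section, with no pooling or normalization. The deposited spatial tables hold Moran's I, a score computed by Space Ranger for each gene; their p columns were not used.

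Spots with at least 1000 UMIs were kept. Muscle spots were those with a mean of 9 sarcomere genes (log scale, per 10000 UMIs) above the Otsu threshold of the section. Regions took 15% of muscle spots each, and the rim was the muscle within 150 µm of other positions. Comparisons between other parts of the muscle are not reported here. UMI counts were summed per section and region and fitted over all 8 sections and 5 groups with the quasi-likelihood test of edgeR 4.0.16 (R 4.3.3; filterByExpr with a minimum count of 10, TMM scaling, Benjamini-Hochberg adjusted p under 0.05 called), with the section as a block where regions of a section were compared. The center and the periphery of 1 section deviated together, with correlations of 0.33, 0.34 and 0.089 in E14.5 and 0.57 in E18.5 control sections, and the pairing comes from the section itself. Alternatives were DESeq2 1.42.0, other scalings, filters and blocks, and leaving out each control section. Scaling by library size alone was chosen after seeing the data. The fits were tested on simulated data. Python 3.11.15, scipy 1.17.1 and scikit-image 0.26.0 were used for the rest.

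The members and all gene lists were chosen with earlier results of these data known. Named were both members, the other sarcomeric chains, up to 4 of the most changed called genes of a list, and the 5 genes most like each member among those with a mean of at least 0.5 UMI per muscle spot, leaving out the 9 muscle genes. Counts depend on how well each gene's probes work, so ratios and shares between genes are of raw probe counts, and only their changes between sections are read.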

Additional observations from a re-analysis of the deposited data

Results flagged for a closer look

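Some differences were themselves found to differ between groups by a test of the difference. The effect of CaV1.1 loss on Myh3 in muscle differed between stages by −1.56 on the log2 scale (E18.5 minus E14.5), and it rests on 1 CaV1.1 KO section at each stage. The center against intermediate difference of the controls was different at the later stage by 0.43 for Myh3 and by −0.62 for Myh8. The center against intermediate difference of Myh8 was 0.58 higher in the CaV1.1 KO than in the controls at E18.5. It rests again on 1 KO section, whose center by junction genes need not be the middle of the fibers.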

How the results depend on the processing

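Over 29 results and 359 alternatives, 317 values kept their direction and their side of the threshold, 21 lost a call, 13 gained one and 8 reversed, and 7 results held under every alternative tried. All values here are log2 differences, and except where named the cause was not tested. Scaled to the 9 muscle genes, the stage difference of Myh3 was −2.96, that of Myh8 in the CaV1.1 KO at E18.5 0.23 and of Myh3 in the cKO 0.48. The same scaling gave Myh8 −0.052 in the center and −0.043 in the periphery against the intermediate region at E18.5, stage differences of −0.076 (Myh8, center), 0.34 (Myh3, periphery) and 0.41 (Myh8, periphery), 0.087 for the center of Myh8 in KO minus control, −0.26 and −0.41 for Myh3 between inner spots and rim at E14.5 and E18.5 and 0.045 for Myh8 there at E18.5. Library size alone gave −0.52 for Myh3 between stages, and DESeq2 −0.74, now called, for Myh8 between the stages' CaV1.1 effects. With no replicate block, Myh3 center against periphery at E14.5 was −0.26, center and periphery against intermediate at E18.5 were 0.62 and 0.25 (Myh3) and −0.34 and −0.48 (Myh8), the stage differences of the center were 0.43 and −0.61, Myh8 in KO minus control was 0.58, and its inner against rim values were 0.59 and 0.55, none of them called. With no filter on low counts the stage difference of the periphery for Myh3 was −0.20, Myh3 in the center was 0.33 (KO minus control) and −0.34 (cKO minus control), and inner against rim 0.10 and 0.12, all of them called. Without 1 control section at a time, the ranges were 0.080 to 0.34 (Myh3 between stages), −0.38 to −0.33 (Myh8 in the cKO), −1.71 to −1.45 and −0.93 to −0.66 (stage difference of the CaV1.1 effect for Myh3 and Myh8), −0.38 to −0.28 (Myh8 center) and 0.19 to 0.30 (Myh3 periphery) at E18.5, −0.29 to −0.063 (Myh3, stage difference of the periphery), 0.52 to 0.63 (Myh8 center, KO minus control), and 0.049 to 0.15 and −0.060 to 0.25 (Myh3 inner against rim). The stage difference of the log2 ratio ranged from −3.73 to −3.38. Pairing stages by replicate number, as a block, gave 0.12 for Myh3 (edgeR adjusted p = 0.53), 3.62 for Myh8 (adjusted p = 0.00048) and 8954 calls against 9707. Same-numbered sections did not deviate together (r = −0.35), so they share only a number and nothing was crossed. Counts of called genes moved most with the 9 muscle genes as scale, to 4933 from 306 (CaV1.1 KO, E14.5), 12453 from 3802 (E18.5), 3878 from 1302 (cKO) and 4706 from 944 (stage difference of the CaV1.1 effect). Without control section 3 of E14.5 they were 64 (CaV1.1 KO, E14.5), 576 (cKO) and 0 (stage difference of the CaV1.1 effect), and the count for the CaV1.1 KO at E18.5 fell to 2379 when only the groups compared were fitted. For other comparisons the count under TMM is given with the lowest and highest in brackets, the lowest with no replicate block. At E14.5 it was 2876 (1213 to 3602) for center against periphery and 3260 (0 to 10007) for inner against rim. At E18.5 it was 1688 (132 to 4899) for the center, 4352 (985 to 8813) for the periphery and 5311 (247 to 10968) for inner against rim. For stage differences it was 1803 (38 to 9502, center) and 1481 (51 to 9083, periphery), for KO minus control in the center 454 (0 to 3488), and for cKO minus control there 50 (1 to 135). With 1 section per mutant group, small differences cannot be told from the spread between sections.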
